A study of Caenorhabditis remanei with 28 samples.

Results

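Larvae of a Caenorhabditis remanei population selected for resistance to oxidative stress were compared with larvae of the ancestral strain, in 12 of the 28 libraries of the series: 6 oxidative libraries (replicates 1 to 6) and 6 ancestor libraries (replicates 3 to 8). They were chosen by population, and ancestor replicates 3 to 6 (n = 4) served for the test while ancestor replicates 7 and 8 (n = 2) were held back as a check. The oxidative population is labelled as oxidative-selected and derived from PX443, and the ancestor is the strain PX443 itself. Both were grown at 20 °C on bacteria, and the series design places every library at 20 °C. The protocol, however, also names 30 °C for the embryos, and of the populations compared only the ancestor's sample names carry a temperature. In both populations embryos were obtained by bleaching and kept 20 h in buffer without food, so all larvae were unfed L1, the first larval stage, and neither population is described as exposed to an oxidant. Each library came from poly-A RNA of about 100000 pooled larvae, and the oxidative regime was represented by 1 population, so that selection and drift cannot be told apart. Whether replicate libraries were made from separate cultures is not stated, so the p-values below reflect the spread among libraries, part of which may be technical.

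Reactive oxygen species are by-products of respiration that damage proteins, lipids and DNA. In the related nematode Caenorhabditis elegans, cells remove them with superoxide dismutases, catalases and peroxiredoxins, and the transcription factor SKN-1 switches on glutathione and detoxification genes when oxidants accumulate. The comparison asks which transcripts differed at baseline, without the stress used in the selection. The deposited files give genes only as identifiers, and 0 of 25337 identifiers could be paired with a gene name, so it was not possible to say which of the genes below belong to these systems, or to check the larval stage against marker genes.

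Oxidative larvae differed from ancestor larvae in 665 of 11312 genes tested, or 5.88% (edgeR quasi-likelihood test with p-values adjusted by Benjamini-Hochberg, threshold 0.05, 6 oxidative against 4 ancestor libraries). Of these, 282 genes rose (2.49% of those tested) and 383 fell (3.39%). Most changes were moderate. The median log2 fold change was 0.80 among the genes that rose and -0.94 among those that fell, against -0.02 over all genes tested. At least 2-fold changes were found for 97 genes that rose and 170 that fell, at least 4-fold changes for 24 and 19, and at least 8-fold changes for 5 and 3. The level of every oxidative library lay above that of all 4 ancestor libraries for 254 of the 282 genes that rose, and below it for 256 of the 383 that fell. Over all genes tested, such a gap was found upwards for 497 (4.39%) and downwards for 408 (3.61%).

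**Figure D1:**
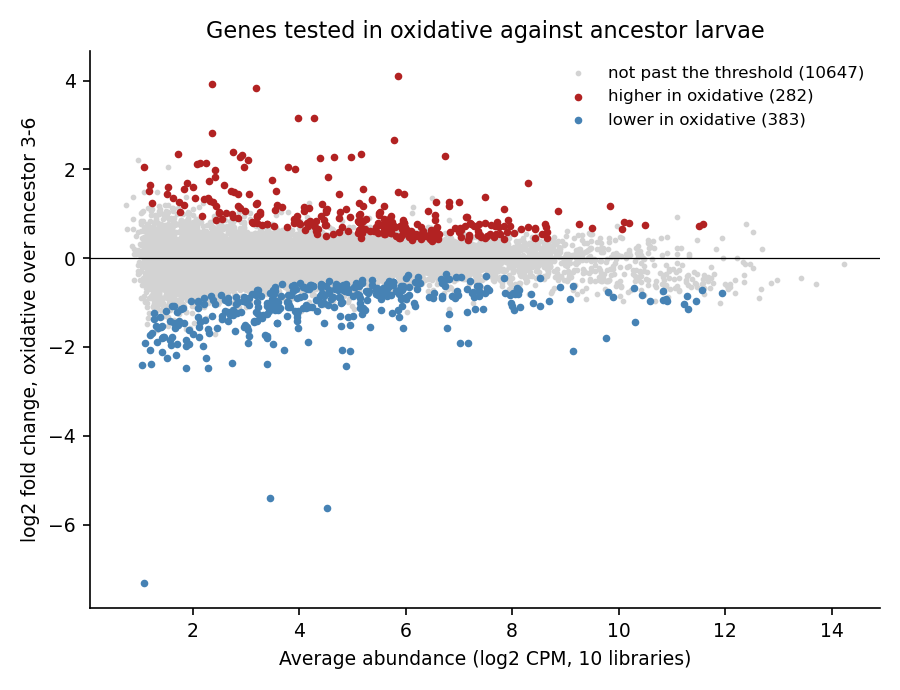
Each point is 1 of 11312 genes, with its average abundance in log2 CPM (counts scaled by library size, over the 10 libraries tested) on the horizontal axis and its log2 fold change, oxidative over ancestor replicates 3 to 6, on the vertical axis. The 282 genes that rose are red, the 383 that fell are blue, and 3 genes that fell lie apart from the rest below -5.

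The number of genes depended on the model and on the libraries. DESeq2, with 21381 genes entered, gave 1005, and limma-voom with sample weights gave 2022 of 11312. An edgeR fit of all 28 libraries gave 287 of 13086. Replicates 3 to 6 of both populations alone gave 217 of 10994, or 82 with the replicate number as a block. The sets of genes tested thus differed between these fits as well. Without ancestor replicate 5 it was 1781, and without ancestor replicate 3 or 4 it was 374 or 392. Without oxidative replicate 1, 2, 5 or 6 it was 442, 435, 441 or 424, and without oxidative replicate 3 or 4 or ancestor replicate 6 it was 707, 494 or 510. All 665 genes kept their direction in the 10 fits that left out 1 library, and 292 of them (129 that rose and 163 that fell) passed the threshold in every one of these fits. The fits reused the libraries on which the 665 genes were chosen, so the kept directions are no separate check.

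Ancestor replicate 5 lay apart from the other ancestor libraries. In a principal component analysis of the 12 libraries, the leading component held 37.8% of the variance and ran through both populations, and population accounted for 13.5% of it. Oxidative replicate 4 (-46.1) and ancestor replicate 5 (-45.7) lay at one end of it, and oxidative replicate 3 (26.3) and ancestor replicates 4, 6 and 8 (32.5, 44.4 and 57.0) at the other. The 100 most abundant genes held 29.5% and 30.8% of gene counts in the libraries at the first end. At the other end they held 36.5%, 40.3%, 41.2% and 42.8%, in the order named. Ancestor replicate 7, with 39.3%, nevertheless scored -16.9. The part of this share or of depth in the component was not tested. The second component held 21.5% of the variance and separated the populations. All 6 oxidative libraries scored between 12.8 and 31.9 on it, and all 6 ancestor libraries between -51.1 and -5.22. The third component held 10.7% of the variance and separated the 2 sets of ancestor libraries. The oxidative libraries scored between 0.869 and 9.10 on it, ancestor replicates 7 and 8 scored 33.8 and 20.0, and ancestor replicates 3 to 6 scored between -27.4 and -15.5. Each of the 6 oxidative libraries had another oxidative library as its closest, and so did 5 of the 6 ancestor libraries with an ancestor library. The exception was ancestor replicate 5, whose closest library was oxidative replicate 1.

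**Figure D2:**
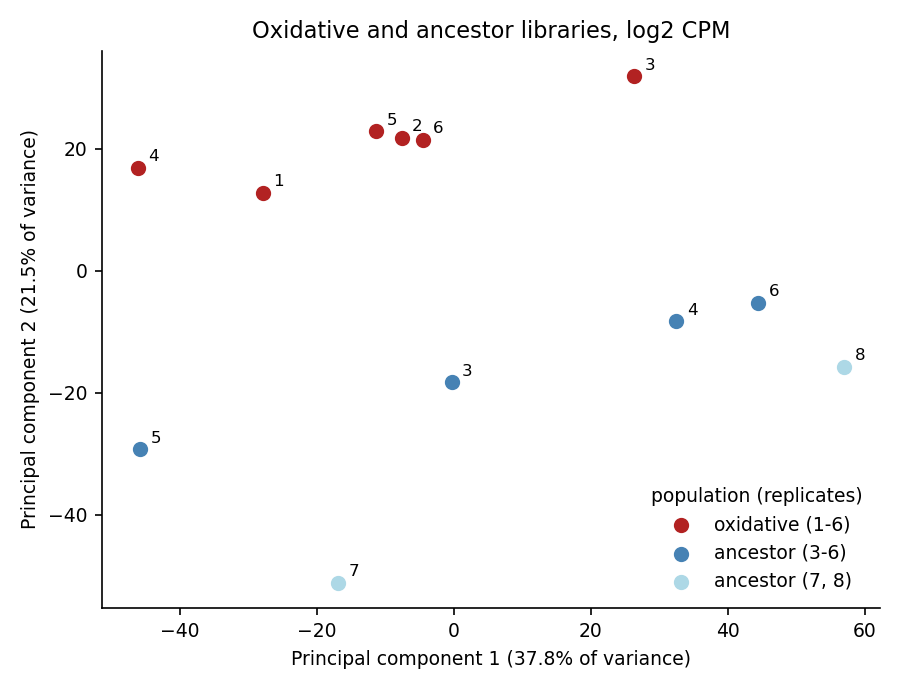
Scores of the 6 oxidative libraries (red), ancestor replicates 3 to 6 (dark blue) and ancestor replicates 7 and 8 (light blue) on the first 2 principal components of log2 CPM, with replicate numbers beside the points. The populations are separated along the vertical axis, and libraries of both spread along the horizontal axis.

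Genes that differed were found at every abundance. The genes tested were ranked by average abundance and split into 4 classes of 2828. In the class of lowest abundance (0.76 to 2.58 log2 CPM) 33 genes rose and 68 fell. In the next class 44 rose and 96 fell, and in the third 71 rose and 97 fell. In the most abundant class (5.56 to 14.2 log2 CPM) 134 rose and 122 fell. Genes that fell thus outnumbered those that rose in each of the 3 lower classes, and not in the highest. The median log2 fold change of genes that rose was 1.45 in the lowest class and 0.66 in the highest, and that of genes that fell was -1.56 and -0.79. Small changes can pass the test only where counts are high, which bears on these medians. Of the 100 most abundant genes 12% passed the threshold, against 5.88% of all genes tested. Of these 100 genes 2 rose and 10 fell, and none of the rises and 2 of the falls were at least 2-fold. The median log2 fold change of these 100 genes was -0.47.

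The 282 genes that rose took together between 3.54% and 4.56% of gene counts in oxidative libraries (mean 4.01% ± 0.326, SD, n = 6), against 2.01%, 1.87%, 2.78% and 1.93% in ancestor replicates 3 to 6. They made up 1.72% and 1.47% in ancestor replicates 7 and 8, which had no part in choosing them. The 383 genes that fell made up between 3.72% and 4.30% in the oxidative libraries (mean 3.96% ± 0.196), against 7.05%, 6.81%, 5.76% and 6.70% in ancestor replicates 3 to 6. In ancestor replicates 7 and 8 they made up 7.30% and 6.63%. The gap to ancestor replicates 3 to 6 follows from how the genes were chosen. Ancestor replicates 7 and 8 also lay outside the range of the oxidative libraries for both groups of genes, but the genes were chosen on these same oxidative libraries, and how far that choice sets this gap was not tested.

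**Figure D3:**
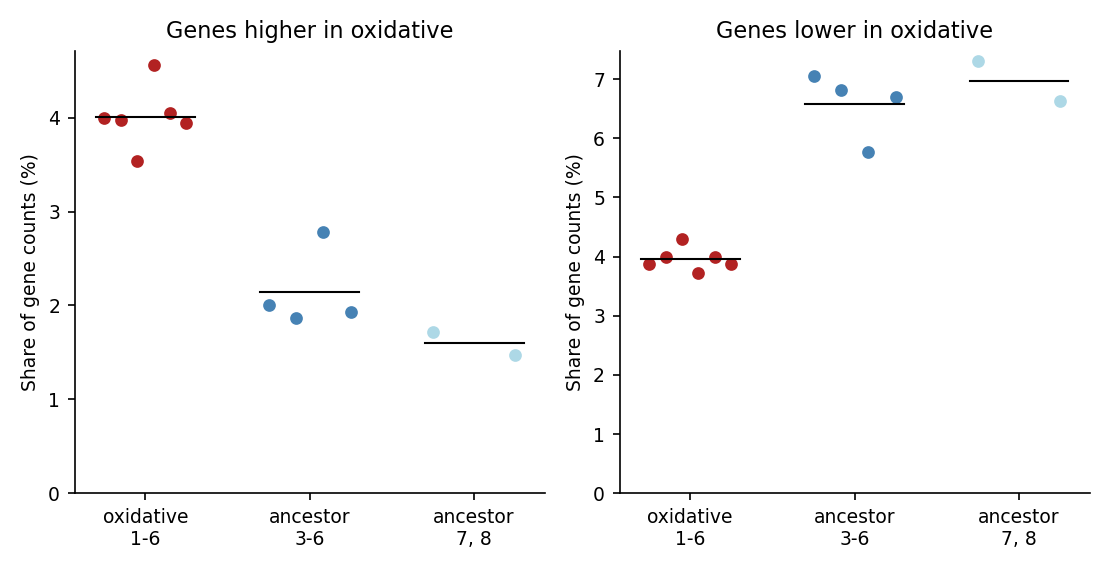
Share of gene counts, in percent, taken by the 282 genes higher in oxidative larvae (left) and the 383 genes lower in oxidative larvae (right), with 1 point per library and a bar at the mean. Oxidative replicates 1 to 6 and ancestor replicates 3 to 6 chose the genes, and ancestor replicates 7 and 8 lie on the ancestor side in both panels.

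The genes that rose most had low levels in the ancestor. Levels are given as CPM, the counts of a gene scaled by library size, and fold changes as log2 of oxidative over ancestor replicates 3 to 6. FL81_20150 rose most, and stood at 70.5 CPM in the lowest oxidative library, 90.5 in the median and 102 in the highest, against 6.40, 4.27, 2.64 and 7.17 CPM in ancestor replicates 3 to 6 (log2 fold change 4.10, SE 0.23, adjusted p = 2.15e-07 by edgeR). The levels in ancestor replicates 7 and 8 were 2.75 and 6.83 CPM, within the range of the other ancestor libraries. Every oxidative library lay above every ancestor library.

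The other 4 genes that rose at least 8-fold are named here because of that size, after their values were seen. FL81_21393 ranged from 5.59 to 8.65 CPM in the oxidative libraries (median 7.36), against 0.388, 0.186, 0.881 and 0.359 CPM in ancestor replicates 3 to 6 and 1.01 and 0.740 in replicates 7 and 8 (log2 fold change 3.92, SE 0.35, edgeR adjusted p = 7.78e-06). FL81_21398 ranged from 11.0 to 15.5 CPM in the oxidative libraries (median 13.8), against 1.16, 1.67, 0.705 and 0.179 CPM in ancestor replicates 3 to 6 and 0 and 0.905 in replicates 7 and 8 (3.82, SE 0.34, edgeR adjusted p = 7.78e-06). The low levels of both genes rested on few reads, with 1 to 5 counts of FL81_21393 and 1 to 9 counts of FL81_21398 in each of ancestor replicates 3 to 6. FL81_19125 ranged from 20.7 to 26.1 CPM in the oxidative libraries (median 22.7), against 3.49, 1.67, 1.59 and 3.41 CPM in ancestor replicates 3 to 6 and 0.724 and 3.62 in replicates 7 and 8 (3.16, SE 0.24, edgeR adjusted p = 1.34e-06). FL81_05979 ranged from 20.5 to 34.3 CPM in the oxidative libraries (median 29.6), against 1.94, 2.79, 4.94 and 2.87 CPM in ancestor replicates 3 to 6 and 2.32 and 2.14 in replicates 7 and 8 (3.16, SE 0.24, edgeR adjusted p = 1.80e-06). For each of these 5 genes the oxidative libraries overlapped with none of the 6 ancestor libraries. Tested against ancestor replicates 7 and 8, the same 5 genes had log2 fold changes between 3.05 (FL81_21393) and 4.55 (FL81_21398), with edgeR adjusted p between 8.28e-06 (FL81_05979) and 0.000197 (FL81_19125). Over all 11312 genes tested, ancestor replicates 7 and 8 both lay below all oxidative libraries for 13.1%. All named genes, here and below, were chosen on these same oxidative libraries. How far that choice sets the values against ancestor replicates 7 and 8 was not tested.

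FL81_21863 was the most abundant gene among those that rose at least 2-fold without overlap. It stood between 828 and 1437 CPM in the oxidative libraries (median 1108), against 462, 531, 338 and 624 CPM in ancestor replicates 3 to 6 (log2 fold change 1.18, SE 0.20, edgeR adjusted p = 0.00272). In ancestor replicates 7 and 8 its level was lower still, at 143 and 271 CPM, and the fold change against these libraries was 2.41 (SE 0.34, edgeR adjusted p = 0.000276). Its call was lost when the share of unaligned reads, described below, was made a covariate (adjusted p = 0.0697); over 23 alternatives the adjusted p lay between 1.03e-06 and 0.0783.

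The genes that fell most behaved differently between the 2 sets of ancestor libraries. FL81_16508 had 0 counts in all 6 oxidative libraries, against 2.72, 2.60, 3.35 and 6.63 CPM (14 to 37 counts) in ancestor replicates 3 to 6. It was at least 37.4-fold lower in oxidative larvae when the oxidative level is set at 3 counts over the group (0.102 CPM), with edgeR adjusted p = 0.000581. In ancestor replicates 7 and 8, however, it had 0 and 3 counts. The same held for the other genes that fell at least 8-fold, FL81_00976 and FL81_24498, named after their values were seen. FL81_00976 ranged from 0.518 to 1.68 CPM in the oxidative libraries (median 0.976), against 30.1, 74.5, 28.4 and 72.8 CPM in ancestor replicates 3 to 6 (log2 fold change -5.64, SE 0.37, edgeR adjusted p = 3.36e-07). It stood at 1.16 and 2.22 CPM in ancestor replicates 7 and 8.

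FL81_24498 ranged from 0.225 to 0.932 CPM in the oxidative libraries (median 0.502), against 15.5, 27.9, 17.6 and 34.1 CPM in ancestor replicates 3 to 6 (log2 fold change -5.40, SE 0.34, adjusted p = 2.28e-07 by edgeR). The levels of 0.289 and 0.740 CPM in ancestor replicates 7 and 8 lay inside the range of the oxidative libraries. Between ancestor replicates 7 and 8 and ancestor replicates 3 to 6 the difference passed the threshold for all 3 genes, with log2 fold changes of -4.45 for FL81_16508 (edgeR adjusted p = 0.0253), -4.83 for FL81_00976 (9.66e-05) and -5.33 for FL81_24498 (3.28e-05). Against ancestor replicates 7 and 8 the oxidative libraries differed by -0.80 for FL81_00976 (SE 0.55, edgeR adjusted p = 0.415) and by -0.06 for FL81_24498 (SE 0.60, adjusted p = 0.970), neither past the threshold, and no fold is given for FL81_16508, where all were at or under 3 counts. These 3 changes therefore rested on ancestor replicates 3 to 6. In control-selected and heat-selected libraries, the other populations of the series, FL81_24498 ranged up to 1.85 and 8.34 CPM, FL81_00976 up to 8.02 and 21.8 CPM, and FL81_16508 up to 0.277 and 0.959 CPM, all below the lowest of ancestor replicates 3 to 6. In both populations FL81_24498 was also higher in replicates 3 to 6 than in 7 and 8. It stood at 1.28 to 1.85 against 0.186 and 0 CPM in control, and at 3.21 to 8.34 against 0.911 and 0.125 in heat. Replicates 1 and 2 were low as well, at 0 and 0.424 CPM in control and at 0 and 0.638 in heat. FL81_00976 split likewise in control (5.26 to 8.02 against 2.70 and 2.21 CPM). Its heat values overlapped (4.07 to 21.8 against 2.89 and 5.77), as did those of FL81_16508 in both populations. FL81_00976 was also low in replicates 1 and 2, at 1.23 and 0.849 CPM in control and at 1.33 and 1.91 in heat. In the oxidative libraries, replicates 3 to 6 overlapped with replicates 1 and 2 for FL81_24498 and FL81_00976.

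FL81_04165, the most abundant gene among those that fell at least 2-fold without overlap, showed no such split among the ancestor libraries. It stood between 292 and 609 CPM in the oxidative libraries (median 405), against 1306, 1382, 819 and 2198 CPM in ancestor replicates 3 to 6 (log2 fold change -1.80, SE 0.25, edgeR adjusted p = 0.000545). Ancestor replicates 7 and 8 held 1887 and 2057 CPM, and the fold change against them was -2.26 (SE 0.30, edgeR adjusted p = 0.000174). It also varied widely among control-selected libraries (474 to 4550 CPM) and heat-selected libraries (404 to 2437 CPM). Of these, control replicate 2 (474 CPM) and heat replicates 1 and 2 (404 and 516 CPM) lay within the range of the oxidative libraries, and the others lay above it. In control, replicates 7 and 8 stood at 3891 and 4550 CPM, above replicates 3 to 6 (1027 to 2168 CPM). In heat, replicates 7 and 8 stood at 1597 and 2437 CPM, above replicates 3 to 6 (652 to 1076 CPM).

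**Figure D4:**
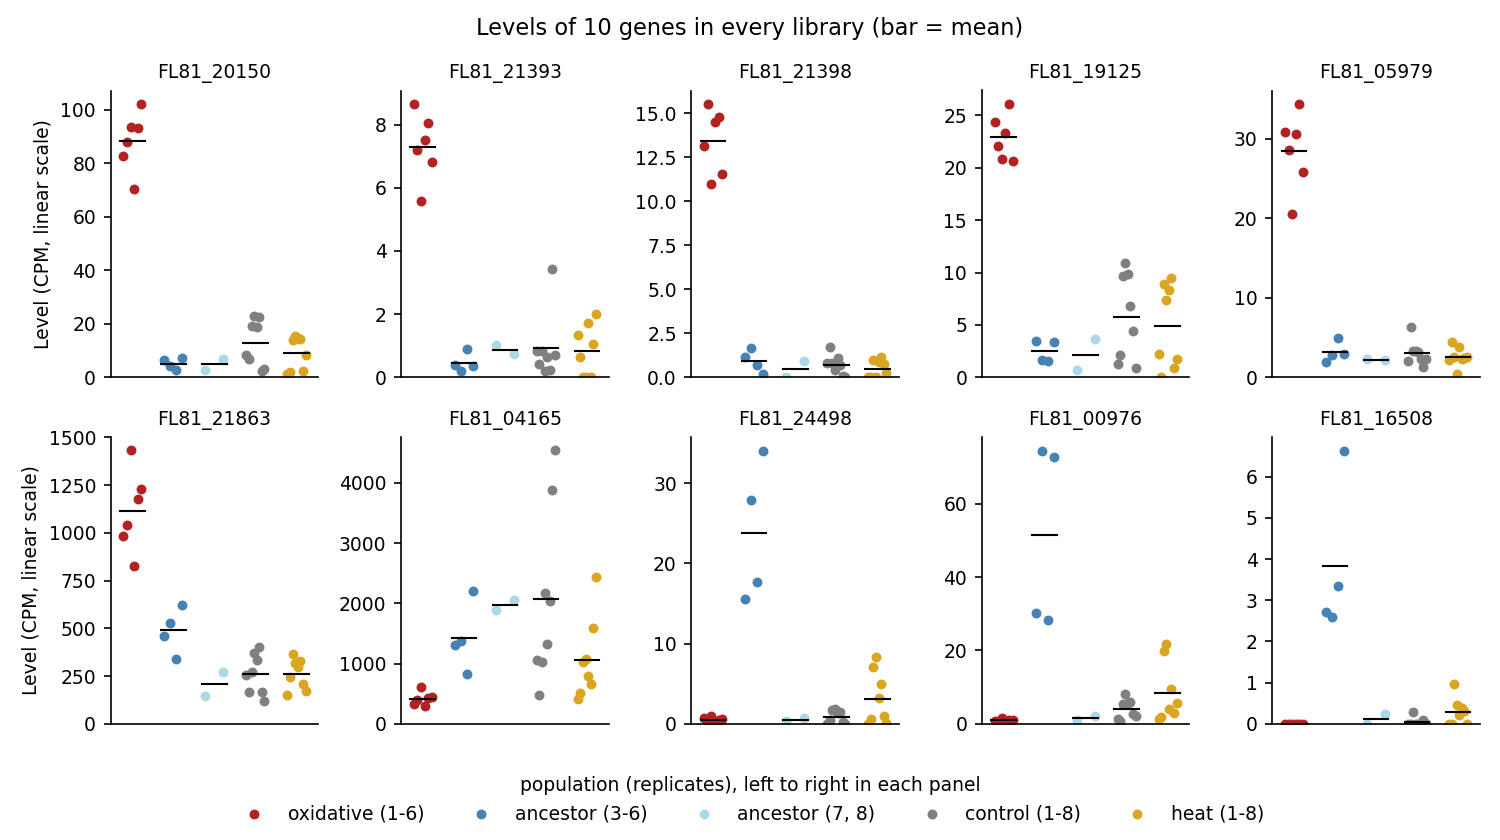
Level in CPM (linear axis from 0) of 10 genes in every library, with oxidative, ancestor 3 to 6, ancestor 7 and 8, control and heat libraries from left to right and a bar at the mean. In the genes that rose, the red oxidative points lie above every ancestor point, and FL81_24498, FL81_00976 and FL81_16508 are highest in ancestor replicates 3 to 6.

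Ancestor replicates 7 and 8 were then set beside all 665 genes, since no call had used them. They stood apart from the other 10 libraries in their read statistics. Reads outside genes made up 11.7% and 10.6% in them, against 15.1% to 19.8% in the oxidative libraries and 15.3% to 22.5% in ancestor replicates 3 to 6. Reads that fell on more than 1 gene made up 3.34% and 3.57%, against 1.90% to 2.37% in the oxidative libraries and 2.31% to 3.07% in ancestor replicates 3 to 6. The sources used here do not say whether replicates 7 and 8 were prepared or sequenced with the others, so a technical difference between the 2 sets of ancestor libraries and a difference in the larvae cannot be told apart, in the shares below as in the values of single genes above. For 221 of the 282 genes that rose, or 78.4%, both lay below all 6 oxidative libraries, and for 1 gene both lay above them. For 214 of the 383 genes that fell, or 55.9%, both lay above all 6 oxidative libraries, and for 17 genes both lay below them. Over all 11312 genes tested, both lay below all oxidative libraries for 13.1% and above them for 11.3%. The 665 genes were chosen on these same oxidative libraries, and how far that choice sets their shares was not tested. The share on the ancestor side was 87.5% for the 24 genes that rose at least 4-fold, 80.8% for those between 2-fold and 4-fold, 78.4% for those between 1.5-fold and 2-fold and 71.7% for smaller rises. Among the genes that fell it was 63.2% for the 19 with at least 4-fold change, 60.3% between 2-fold and 4-fold, 51.9% between 1.5-fold and 2-fold and 53.1% for smaller falls.

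The size of the difference was also compared gene by gene, as the difference between the oxidative mean and the mean of ancestor replicates 7 and 8 divided by that between the oxidative mean and the mean of ancestor replicates 3 to 6, on the scale of log2(CPM + 0.5). The median was 115% for genes that rose (quartiles 75.9% and 160%) and 81.3% for genes that fell (quartiles 31.5% and 125%). The direction turned round for 5 of the 282 genes that rose and for 55 of the 383 that fell. The genes were chosen on the same oxidative libraries and on ancestor replicates 3 to 6, and how far that choice sets these percentages was not tested. No test was made of the difference between genes that rose and genes that fell.

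**Figure D5:**
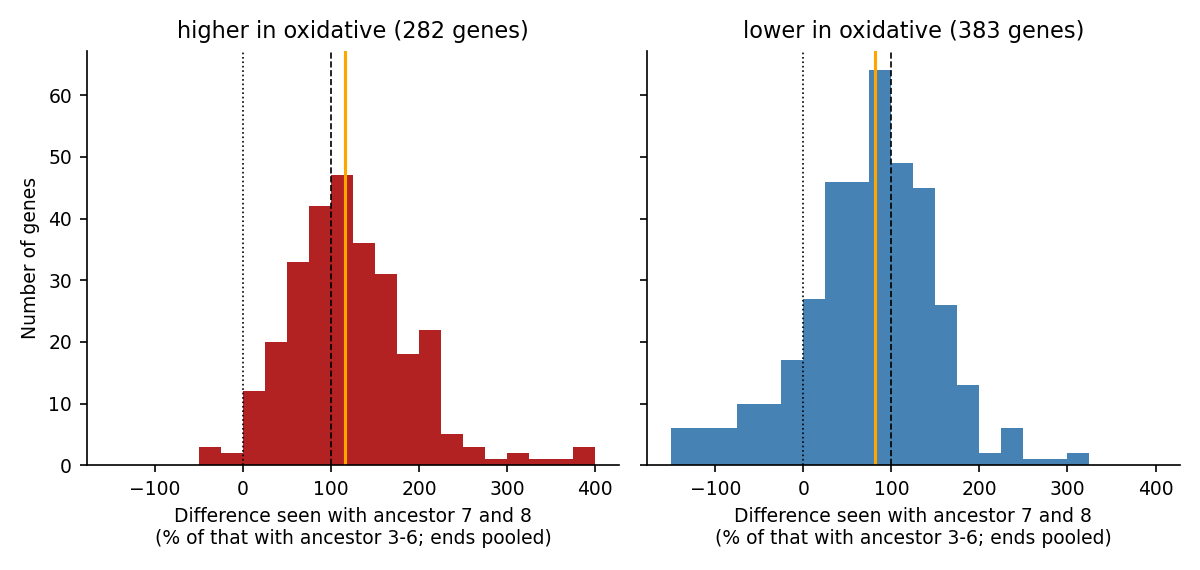
Number of genes by the difference seen with ancestor replicates 7 and 8, in percent of that seen with ancestor replicates 3 to 6, for the 282 genes higher (left) and the 383 genes lower (right) in oxidative larvae. The dashed line marks 100% (the same difference), the dotted line 0% (the oxidative level) and the orange line the median, 115% on the left and 81.3% on the right.

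Tested in their own right, the 6 oxidative libraries differed from ancestor replicates 7 and 8 in 1095 of 12252 genes (8.94%), 523 higher (4.27%) and 572 lower (4.67%), in an edgeR quasi-likelihood fit of 12 libraries with 3 groups. The number was 514 in a fit of all 28 libraries, 1488 in a fit of the compared libraries alone and 1483 with DESeq2. In the same fit they differed from ancestor replicates 3 to 6 in 469 genes, 211 higher and 258 lower. Both comparisons share the oxidative libraries. The 2 sets of ancestor libraries differed from each other in 192 genes (1.57%), with 53 (0.433%) higher in replicates 7 and 8 and 139 (1.13%) lower. That number was 88 without ancestor replicate 7, 369 without replicate 8, 113 without replicate 3 and 30 in a fit of the ancestor libraries alone. With all 6 ancestor libraries taken as 1 group, 829 genes differed between oxidative and ancestor larvae, 372 higher and 457 lower, and 504 of them were among the 665.

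Read statistics were compared between the populations as well. Reads assigned to genes numbered between 3103341 and 5754254 in the oxidative libraries, between 4534564 and 6887393 in ancestor replicates 3 to 6, and 6718320 and 15755610 in ancestor replicates 7 and 8. The unaligned share of all reads was 35.1% ± 1.91 (SD, n = 6) in the oxidative libraries, against 27.0%, 22.2%, 19.3% and 35.02% in ancestor replicates 3 to 6 (two-sided exact permutation test over 210 splits, p = 0.0190, adjusted p = 0.0571 over 6 measures; the smallest p possible is 0.00476), and 18.2% and 21.3% in ancestor replicates 7 and 8. Ancestor replicate 6 was inside the oxidative range. Reads that fell on more than 1 gene made up 2.06% ± 0.190 in the oxidative libraries and 2.55% ± 0.351 (n = 4) in ancestor replicates 3 to 6 (exact permutation test, p = 0.0143, adjusted p = 0.0571). The 100 most abundant genes of each library held 33.0% ± 2.37 of the counts in oxidative larvae and 37.4% ± 4.74 in ancestor replicates 3 to 6 (exact permutation test, p = 0.0905, adjusted p = 0.136). None of the 6 measures passed the threshold after adjustment. With all 6 ancestor libraries, which include replicates 7 and 8, 5 of the 6 measures passed it (exact permutation tests, adjusted p between 0.0216 and 0.0338), and reads outside genes did not (adjusted p = 0.602).

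Reads set aside for low alignment quality were few, but their number separated the populations, with 1 to 4 reads in each oxidative library, against 48, 30, 47 and 25 in ancestor replicates 3 to 6 and 78 and 10 in ancestor replicates 7 and 8. With the unaligned share as a covariate, 1143 genes differed between oxidative larvae and ancestor replicates 3 to 6, 435 higher and 708 lower, and 429 of them were among the 665. The part of the low-quality reads in the calls was not tested. The labels name no batch for any library. A technical difference between the oxidative and ancestor libraries and a difference in the larvae therefore cannot be told apart.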

How the data were processed

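The authors deposited raw counts of reads per gene identifier, 1 table per library; GSNAP and HTSeq are the aligner and counter named in the submitters' processing notes. Genome build, annotation and strand setting were not given in the sources used here, so reads of overlapping genes and near-identical copies are uncertain. The 5 summary lines of each table (between 36.1% and 61.5% of reads in the 12 libraries) stayed out of library sizes and tests. No identifier matched the RefSeq gene table (assembly CRPX506), so the lists and markers that need names were not used.

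Counts of oxidative replicates 1 to 6 and ancestor replicates 3 to 6 were filtered with filterByExpr (minimum count 10), scaled by TMM and tested with the quasi-likelihood test of edgeR 4.0.16 in R 4.3.3, with Benjamini-Hochberg adjustment at 0.05. Both other comparisons came from 1 fit of 12 libraries with 3 groups. Each SE printed for a fold change is its absolute log2 value divided by the square root of the quasi-likelihood F statistic. Printed CPM values are scaled by TMM over all 28 libraries. Depending on depth, 3 counts were worth 0.247 to 0.778 CPM. Library measures were compared by two-sided exact permutation tests. Principal components used log2 CPM with a prior count of 2. The procedure was tested on simulated data.

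No pair of libraries within a population held identical values (chi-square per degree of freedom between 2.09 and 96.1). The genes named were, in each direction, the one with the largest change and the most abundant one changed at least 2-fold, among those past the threshold with at least 1 log2 CPM on average and no overlap; FL81_21393, FL81_21398, FL81_19125, FL81_05979, FL81_00976 and FL81_24498 were added after their values were seen. The libraries, lists and tests were chosen with earlier results of these data known. Alternatives tried were other scalings, filters and tools (DESeq2 1.42.0, limma 3.58.1), covariates, other sets of libraries, and leaving out each library.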

Additional observations from a re-analysis of the deposited data

Results flagged for a closer look

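The difference between oxidative and ancestor larvae depended on which ancestor libraries were used for 3 of the 10 genes named. Ancestor replicates 7 and 8 differed from ancestor replicates 3 to 6 by a log2 fold change of -4.45 for FL81_16508 (edgeR adjusted p = 0.0253), -4.83 for FL81_00976 (9.66e-05) and -5.33 for FL81_24498 (3.28e-05), with both libraries lower than each of the 4. All 3 genes were chosen among those that fell most against ancestor replicates 3 to 6.

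The share of reads that fell on more than 1 gene was 3.07% in ancestor replicate 4, above the other 3 of ancestor replicates 3 to 6 (2.31% to 2.42%). Ancestor replicates 7 and 8, at 3.34% and 3.57%, were higher still, so that replicate 4 was not the extreme among all 6 ancestor libraries. Of 32 groups of values examined for such a stray sample (10 genes and 6 library measures in 2 groups), this was the 1 found, where chance alone gives about 1 in 20.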

How the results depend on the processing

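All 10 named genes kept their direction under every alternative that gave a value (22 or 23 each), and 9 of them stayed past the threshold in all of these. FL81_16508, FL81_00976 and FL81_24498 had 22 values, with none from the fit of all 6 ancestor libraries as 1 group. That fit joins the held-back ancestor libraries, where these genes were low, to the others. How these genes fare in it was therefore not tested. FL81_21863 lost its call when the unaligned share was a covariate (adjusted p = 0.0697) and with the replicate block (0.0783). The alternatives reused libraries on which the 10 genes were chosen, so they are no separate check of these genes. Against 665 of 11312 genes tested (282 higher, 383 lower), DESeq2 gave 1005 (443 higher), with 21381 genes entered. Limma-voom with sample weights gave 2022 of 11312 (826 and 1196). As covariates, the unaligned share gave 1143 (435 and 708), the outside-gene share 1014 (388 and 626) and depth, chosen after seeing the data, 1097 (513 and 584). A fit of all 28 libraries gave 287 of 13086 (115 and 172). The cause of these differences was not tested. Another scaling (RLE), other filters on low counts and all 6 ancestor libraries as 1 group gave between 661 and 829, within 1.5 times, and so did the fit of 12 libraries, with 469. Leaving out 1 library gave between 374 and 1781 genes (152 to 754 higher, 218 to 1027 lower).

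Same-numbered oxidative and ancestor libraries showed no clear joint deviation. The correlation of their deviations lay between -0.463 and 0.145, 1 of 4 pairs was over 0.1, and 2 of 4 oxidative libraries correlated best with their own number. The numbers were not taken as pairs in the main test. Whether equal numbers share a preparation cannot be decided from 4 pairs. Replicates 3 to 6 of both populations alone gave 217 of 10994 genes (98 higher), and 82 (46 and 36) with the replicate block, each with fewer libraries.

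Oxidative larvae differed from ancestor replicates 7 and 8 in 514 genes in the fit of 28 libraries, 1488 in a fit of these libraries only, 1483 with DESeq2, and in 732 to 1163 when 1 library was left out, against 1095. The 192 genes that differed between the sets of ancestor libraries became 343 with DESeq2, 30 in a fit of these libraries only, 16 in the fit of 28, and 88 to 369 when 1 library was left out. With all 6 ancestor libraries, oxidative minus ancestor was -2971000 gene counts (adjusted p = 0.0338), 11.3 percentage points of unaligned reads (0.0216), -0.794 of reads on more than 1 gene (0.0216), -0.368 of multiply aligned reads (0.0216) and -5.59 in the 100 most abundant genes (0.0325), each now past the threshold by exact permutation tests, and the difference in reads outside genes was 1.09 points (0.602), against -1.43 with ancestor replicates 3 to 6. Leaving out 1 library gave -1438000 to -653300 gene counts, 7.04 to 12.3 points unaligned, -2.57 to -0.182 outside genes, -0.569 to -0.316 on more than 1 gene, -0.301 to -0.161 multiply aligned and -6.57 to -3.08 in the 100 most abundant genes. Depth limits the low levels: FL81_16508, FL81_00976, FL81_21393, FL81_21398 and FL81_24498 each had some of the 12 libraries with under 3 counts.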

Other observations

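The levels of the genes that rose most were also read in the control-selected (n = 8) and heat-selected (n = 8) libraries, which took no part in choosing them. FL81_20150 stood at 70.5 CPM in the lowest oxidative library, and ranged from 2.23 to 23.05 CPM in control and from 1.33 to 15.3 CPM in heat libraries. FL81_19125 stood at 20.7 CPM in the lowest oxidative library, and ranged from 0.929 to 10.9 CPM in control and from 0 to 9.47 CPM in heat libraries. FL81_05979, FL81_21393 and FL81_21398 reached at most 6.37, 3.44 and 1.70 CPM in control and 4.46, 2.01 and 1.14 CPM in heat libraries. FL81_21863 stood at 828 CPM in the lowest oxidative library, and reached 401 CPM in control and 365 CPM in heat libraries. In both populations FL81_20150, FL81_19125 and FL81_21863 were higher in replicates 3 to 6 than in 7 and 8. FL81_20150 stood at 18.8 to 23.05 against 2.23 and 3.02 CPM in control, and at 13.7 to 15.3 against 2.28 and 8.40 in heat. For FL81_05979, FL81_21393 and FL81_21398 these sets of replicates overlapped in heat. For all 6 genes the oxidative libraries overlapped with no library of the other 3 populations. The genes were chosen as higher in these same oxidative libraries. How many of all genes tested show such a gap was not counted.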
